A study of Mus musculus with 18 samples.

Results

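Complement genes and the A subunit of coagulation factor XIII were followed in osteogenic O9-1 cells, through 7 genes: C3, C1ra, C1s1, C4b, Cfb, Serping1 and F13a1. They were chosen by function and because C3 and F13a1 had shown large changes in opposite directions at d5 in these same libraries. All 7 were found by symbol among the 55335 gene identifiers of the count data. Their d5 values are therefore a description and carry no test, whereas d2.5, which played no part in the choice, was tested.

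O9-1 is a neural crest (NC) cell line isolated from heads of E8.5 mouse embryos, and its cells were kept in osteoblast differentiation medium. The 18 bulk RNA-seq libraries come from 3 groups at d2.5 and at d5, with 3 libraries each. Ctrl+vehicle received control siRNA and vehicle, Ctrl+FGF2 received control siRNA and FGF2, and Y/T dKD+FGF2 received siRNA pools against both Yap and Taz together with FGF2. They are called the vehicle, FGF2 and knockdown libraries where that is clear. The genotype is Wildtype throughout, all groups received an siRNA and the same medium, and no group combined the knockdown with vehicle, so the knockdown was measured only in the presence of FGF2. The labels make each day its own batch, so a difference between days cannot be told apart from a difference between batches, and groups were compared within a day. Gene counts per library ran from 10377151 to 14698525. Nothing in the labels says that replicates are separate cultures, so p-values measure only the spread between these libraries. In bulk RNA, fewer cells of one kind and less RNA per cell cannot be told apart.

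Complement is a chain of plasma proteases and their substrates that tags cells and debris for clearance. In the classical pathway the proteases C1r and C1s, encoded in the mouse by C1ra and C1s1 and their close copies C1rb and C1s2, sit with C1q in the C1 complex and cleave C4 and C2. The resulting convertase cleaves C3, on which all pathways converge, and factor B (Cfb) forms the convertase of the alternative loop. C1 inhibitor, encoded by Serping1, inactivates C1r and C1s. Factor XIII A (F13a1) is a transglutaminase that cross-links fibrin in clots, and it is also known from macrophages, megakaryocytes and the matrix of osteoblasts. Liver is the main source of most complement proteins in plasma, but fibroblasts and bone-forming cells also make several of them.

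The genes lie in a few places of the genome (GENCODE M21, GRCm38). C1ra (chromosome 6, 124512405 to 124523443, plus strand) and C1s1 (chromosome 6, 124530345 to 124542359, minus strand) are neighbours. C4b (chromosome 17, 34728380 to 34743882) and Cfb (chromosome 17, 34856374 to 34862518) are both on the minus strand, and C3 lies further along chromosome 17 (57203970 to 57228136, minus strand). Serping1 is on chromosome 2 (84765387 to 84775444, minus strand) and F13a1 on chromosome 13 (36867178 to 37050244, minus strand). Counts are summed over the exons of each gene. Reads of C1ra, C1s1 and C4b that also match C1rb, C1s2 or C4a were not counted, so these levels are uncertain.

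The sequences just before the starts of C3 and F13a1 are shown because these genes had the largest changes at d5 and in opposite directions. They are the 250 bases before the RefSeq start (GRCm38.p6), each read along the gene's own minus strand, at chr17:57228137-57228386 for C3 and chr13:37050245-37050494 for F13a1. Capitals mark a match to a searched motif.
C3: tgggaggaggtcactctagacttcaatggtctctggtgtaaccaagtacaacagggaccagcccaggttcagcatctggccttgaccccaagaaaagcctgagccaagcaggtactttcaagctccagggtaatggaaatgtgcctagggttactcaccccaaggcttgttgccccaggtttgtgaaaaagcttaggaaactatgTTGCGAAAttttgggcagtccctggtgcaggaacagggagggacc
F13a1: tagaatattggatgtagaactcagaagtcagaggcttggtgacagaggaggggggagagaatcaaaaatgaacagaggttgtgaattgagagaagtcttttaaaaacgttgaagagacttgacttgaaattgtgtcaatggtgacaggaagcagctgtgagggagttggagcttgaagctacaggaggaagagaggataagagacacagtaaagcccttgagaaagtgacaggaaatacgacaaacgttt

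The letter patterns searched on both strands of these windows were TEAD (GGAATG), the DNA partner of Yap and Taz, AP-1 (TGANTCA), C/EBP (TTNNGCAA), NF-kB (GGGANTTCC), the STAT GAS element (TTCNNNGAA) and the CArG box. The C3 window holds 1 match, to C/EBP, on the opposite strand (TTGCGAAA) from 45 to 38 bases before the start, and 9.56% of all 32851 mouse windows of that length hold a C/EBP match. The F13a1 window holds none of these letters. The C1ra window holds a TEAD match (12.6% of all windows do), and 1 of the 2 C1s1 windows holds a TEAD and a C/EBP match. These are matches of letters and not measured binding sites.

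The knockdown was read first. Yap1 was at 129 ± 2.80 CPM (counts scaled to library size, normalized CPM; SD, n = 3) in the FGF2 libraries and 66.7 ± 2.45 CPM in the knockdown libraries at d2.5, and at 153 ± 5.96 and 70.5 ± 3.40 CPM at d5. Wwtr1, which encodes Taz, was at 222 ± 2.96 and 136 ± 5.97 CPM at d2.5 and at 215 ± 2.87 and 124 ± 3.24 CPM at d5. In the fits, Yap1 kept 51.5% and Wwtr1 60.8% of the Ctrl+FGF2 level at d2.5, and 46.0% and 57.5% at d5 (adjusted p at most 2.55e-15 at d2.5 and 4.92e-11 at d5), so neither target was lost. Against vehicle at d2.5, Yap1 in the knockdown group was at 44.0% (adjusted p = 1.58e-21). Wwtr1 was at 95.6% of vehicle and not called (adjusted p = 0.122), while FGF2 alone had it 1.57-fold above vehicle. At d5 both targets were called lower in the knockdown group than in vehicle.

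Before the effects, the levels of the 7 genes across the series fall into 3 kinds. C1ra, C1s1 and Serping1 were well expressed at d5 in every group. C3 and F13a1 were at moderate levels that depended on the group. C4b and Cfb were close to silent: Cfb had 0 counts in all 18 libraries, which allows up to 3 counts per group, and C4b had between 0 and 2 counts in any library.

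**Figure D1:**
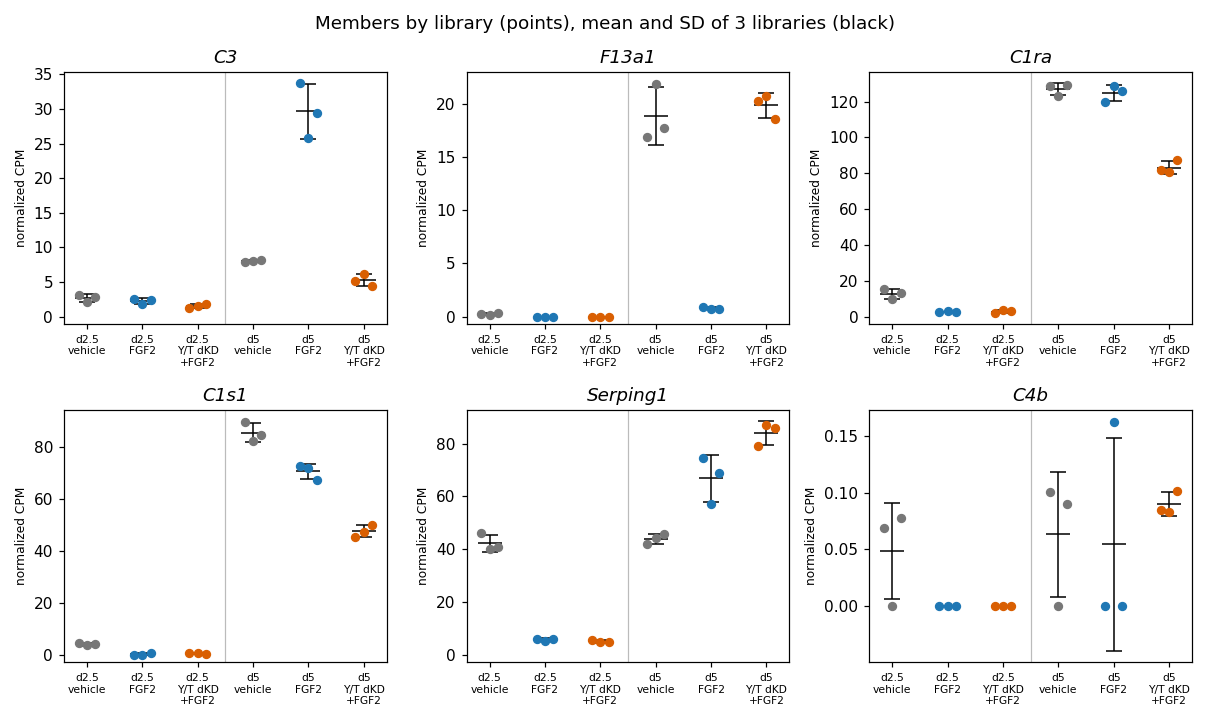
Normalized CPM (y axis, linear) of 6 of the genes in the 6 groups (x axis), with a point per library and black bars for the mean and SD of 3 libraries. At d5 the C3 libraries of Ctrl+FGF2 sit between 25.8 and 33.7 CPM above both other groups, the F13a1 libraries of Ctrl+FGF2 reach at most 0.919 CPM, and C4b at most 0.163 CPM. Cfb, at 0 counts throughout, is not drawn.

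C3 is the substrate on which the complement pathways meet. At d5 it had 79, 96 and 91 counts in the vehicle libraries, 367, 317 and 328 in the FGF2 libraries and 61, 75 and 44 in the knockdown libraries, which is 8.04 ± 0.118, 29.7 ± 3.96 and 5.30 ± 0.880 CPM. All FGF2 libraries thus lie above all vehicle libraries, and all knockdown libraries lie below both. The fitted C3 level was 3.71-fold higher with FGF2 than with vehicle (log2 1.89) and 5.55-fold lower with the knockdown than with FGF2 alone (log2 -2.47). These comparisons share the Ctrl+FGF2 libraries, and against vehicle the knockdown group was 1.495-fold lower (log2 -0.58).

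F13a1 at d5 had the opposite order. Its counts were 168, 263 and 198 in the vehicle libraries, 10, 9 and 8 in the FGF2 libraries, and 238, 250 and 182 in the knockdown libraries, which is 18.9 ± 2.68, 0.790 ± 0.112 and 19.9 ± 1.17 CPM. The FGF2 libraries stand apart from the rest, and those of the vehicle and knockdown groups overlap. The fitted level was 23.5-fold lower with FGF2 than with vehicle (log2 -4.56) and 24.8-fold higher with the knockdown than with FGF2 alone (log2 4.63). Because the Ctrl+FGF2 counts sum to only 27, the sizes of both ratios are uncertain (the first is 24.1-fold from the summed counts). The knockdown group was at 1.05 times the vehicle level in summed counts, and whether these groups differ was not tested.

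**Figure D2:**
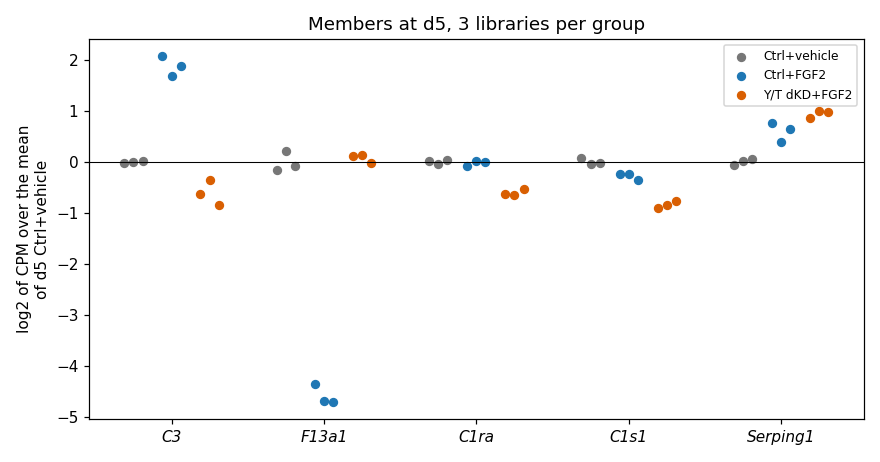
log2 of each d5 library's normalized CPM over the mean of d5 Ctrl+vehicle (y axis) for 5 genes (x axis), with a point per library coloured by group. C3 lies above and F13a1 below the zero line in the 3 Ctrl+FGF2 libraries, and F13a1 in the knockdown libraries overlaps Ctrl+vehicle.

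The C1 proteases and their inhibitor had smaller fold differences between groups at d5. C1ra was at 128, 123 and 129 CPM in the vehicle libraries, 120, 129 and 126 CPM in the FGF2 libraries, and 81.7, 80.8 and 87.2 CPM in the knockdown libraries. The first 2 groups overlap, and the knockdown libraries lie below them, with a fitted C1ra level 1.51-fold below Ctrl+FGF2 (log2 -0.59). C1s1 was at 89.7, 82.3 and 84.6 CPM in the vehicle libraries, 72.6, 72.0 and 67.1 CPM in the FGF2 libraries, and 45.5, 47.3 and 50.1 CPM in the knockdown libraries, a stepwise order with no overlap between groups. Its fitted level was 1.20-fold lower with FGF2 than with vehicle (log2 -0.26) and 1.49-fold lower with the knockdown than with FGF2 alone (log2 -0.58).

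Serping1, the gene of C1 inhibitor, had its lowest d5 level with vehicle and its highest with the knockdown. It was at 41.9, 44.2 and 45.6 CPM in the vehicle libraries, 74.5, 57.0 and 68.9 CPM in the FGF2 libraries, and 79.0, 87.2 and 86.0 CPM in the knockdown libraries. The groups do not overlap, and the fitted level was 1.53-fold higher with FGF2 than with vehicle (log2 0.61) and 1.26-fold higher with the knockdown than with FGF2 alone (log2 0.33). Within d5, the group with the highest level of this inhibitor gene was thus the one with the lowest levels of both C1ra and C1s1. This was not so at d2.5, where Serping1, C1ra and C1s1 were all highest in the vehicle libraries (42.4, 12.7 and 4.13 CPM).

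At d2.5 the question was whether these genes already responded to FGF2 and to the knockdown. Of the 7, 4 passed the filter on low counts and were tested (C3, C1ra, C1s1 and Serping1), and C4b, Cfb and F13a1 were not. C1s1 passed through its vehicle libraries alone, so its differences from vehicle were built into its selection and are given as values with no test. Of the other 3, C1ra and Serping1 were lower with FGF2 than with vehicle and none was higher by edgeR or DESeq2 (also none at an unadjusted p under 0.05), where 34.1% of all 13677 genes tested were called lower and 33.5% higher. None of the 4 was called by edgeR or DESeq2 with the knockdown against FGF2 alone (1 of them, C3, had an unadjusted edgeR p under 0.05), where 10.8% of all genes were called higher and 13.6% lower. Against vehicle, C3, C1ra and Serping1 were lower in Y/T dKD+FGF2, with 35.7% of all genes called lower and 34.1% higher.

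Serping1 was called lower with FGF2 at d2.5. It was at 46.0, 40.1 and 41.0 CPM in the vehicle libraries, 5.85, 5.39 and 6.22 CPM in the FGF2 libraries, and 5.80, 4.98 and 4.82 CPM in the knockdown libraries. FGF2 lowered it 7.32-fold (log2 -2.87 ± 0.09 SE, adjusted p = 9.84e-23). Between the knockdown group and Ctrl+FGF2, whose libraries overlap, the log2 difference was -0.18 ± 0.14 SE (adjusted p = 0.388). Serping1 in the vehicle libraries was at 42.4 ± 3.22 CPM at d2.5 and 43.9 ± 1.85 CPM at d5, and in the FGF2 libraries at 5.82 ± 0.416 CPM at d2.5 and 66.8 ± 8.95 CPM at d5.

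C1ra was lower with FGF2 as well. It had 220, 152 and 168 counts in the vehicle libraries, 36, 40 and 39 in the FGF2 libraries and 26, 45 and 38 in the knockdown libraries, which is 12.7 ± 2.70, 2.68 ± 0.199 and 2.88 ± 0.681 CPM, so the FGF2 and knockdown libraries overlap and lie below vehicle. FGF2 lowered C1ra 4.73-fold (log2 -2.24 ± 0.16 SE, adjusted p = 2.28e-13), and the knockdown differed from FGF2 alone by log2 0.10 ± 0.23 SE (adjusted p = 0.792). C1s1 had 68, 57 and 52 counts in the vehicle libraries, 2, 2 and 9 counts in the FGF2 libraries, and 8, 8 and 4 counts in the knockdown libraries. The C1s1 libraries of the vehicle group lie above those of both others, with a fitted level 13.4-fold below vehicle in Ctrl+FGF2 (log2 -3.74 ± 0.32 SE, not tested). The knockdown difference from FGF2 alone, log2 0.79 ± 0.53 SE, rests on 20 against 13 counts (adjusted p = 0.299). Of those 13 counts, 9 are in Ctrl+FGF2 replicate 3, and without it the C1s1 log2 values were -4.77 for FGF2 against vehicle and 1.82 for the knockdown against FGF2 alone (adjusted p = 0.0536).

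For C3 at d2.5, neither FGF2 against vehicle nor the knockdown against FGF2 alone passed the threshold. Its counts were 46, 33 and 37 in the vehicle libraries, 36, 25 and 37 in the FGF2 libraries, and 15, 19 and 23 in the knockdown libraries. The vehicle and FGF2 libraries overlap, with a log2 difference of -0.26 ± 0.21 SE (adjusted p = 0.290). The knockdown libraries lie below all Ctrl+FGF2 libraries in CPM, at a log2 difference of -0.60 ± 0.25 SE that did not pass the threshold (adjusted p = 0.0774). C3 was called lower only between Y/T dKD+FGF2 and Ctrl+vehicle among its 3 comparisons at d2.5 (log2 -0.85 ± 0.24 SE, adjusted p = 0.00218).

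F13a1 was barely detected at d2.5. It had 3, 2 and 4 counts in the Ctrl+vehicle libraries and 0 counts in all 6 libraries with FGF2. With each of those groups set at a floor of 3 counts over its libraries, F13a1 was 2.998-fold lower in the FGF2 libraries and 2.63-fold lower in the knockdown libraries than in the vehicle libraries. With the counting error of the 9 vehicle counts included, the differences were at least 1.97-fold and 1.73-fold (lower ends of the exact 95% binomial intervals). A difference between both FGF2 groups was not detectable at this depth. At d5 F13a1 in the knockdown libraries had 670 counts over its 3 libraries, against 0 at d2.5.

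**Figure D3:**
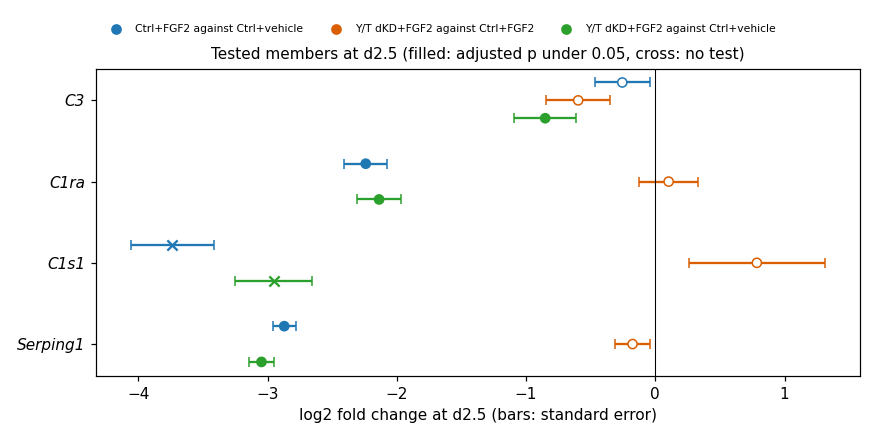
log2 fold change at d2.5 (x axis) of the 4 genes that passed the filter (y axis) in the 3 comparisons, with standard errors as bars, filled points for adjusted p under 0.05, and crosses for C1s1 against vehicle, which was not tested. All comparisons against vehicle lie left of zero, that of C3 with FGF2 with an open point, and the 4 points of the knockdown against FGF2 alone are open.

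Levels of the 2 days are set side by side without a test. From d2.5 to d5, C1ra was 10.03-fold higher in the vehicle libraries and 46.5-fold higher in the FGF2 libraries, and C1s1 was 20.7-fold and 238-fold higher, the last from only 13 counts at d2.5. C3 was 2.95-fold higher in the vehicle libraries, 13.03-fold in the FGF2 libraries and 3.51-fold in the knockdown libraries. F13a1 was 87.7-fold higher in the vehicle libraries, from 9 counts at d2.5. Batch and day cannot be told apart in these ratios.

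Levels were compared between genes only per length, as mean CPM per kilobase of exon. At d2.5 in the vehicle libraries, Serping1 led at 18.2 ± 1.38, followed by C1ra at 4.25 ± 0.907, C1s1 at 1.32 ± 0.165, C3 at 0.529 ± 0.104 and F13a1 at 0.0319 ± 0.0134 CPM per kilobase, and no neighbours in this order overlap within 1 SD. At d5 in the vehicle libraries the order was C1ra at 42.6 ± 1.09, C1s1 at 27.3 ± 1.20, Serping1 at 18.9 ± 0.798, F13a1 at 2.80 ± 0.398 and C3 at 1.56 ± 0.0229 CPM per kilobase. In Ctrl+FGF2 at d5, F13a1 was the last of these and C3 stood above it, at 0.117 ± 0.0166 and 5.77 ± 0.771 CPM per kilobase. The inhibitor gene Serping1 had 4.29 times the per-length level of C1ra in the vehicle libraries at d2.5, 2.78 times in the FGF2 libraries and 2.31 times in the knockdown libraries. At d5 the order of groups was the reverse, and that ratio was 0.443 in the vehicle libraries, 0.686 in the FGF2 libraries and 1.30 in the knockdown libraries.

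**Figure D4:**
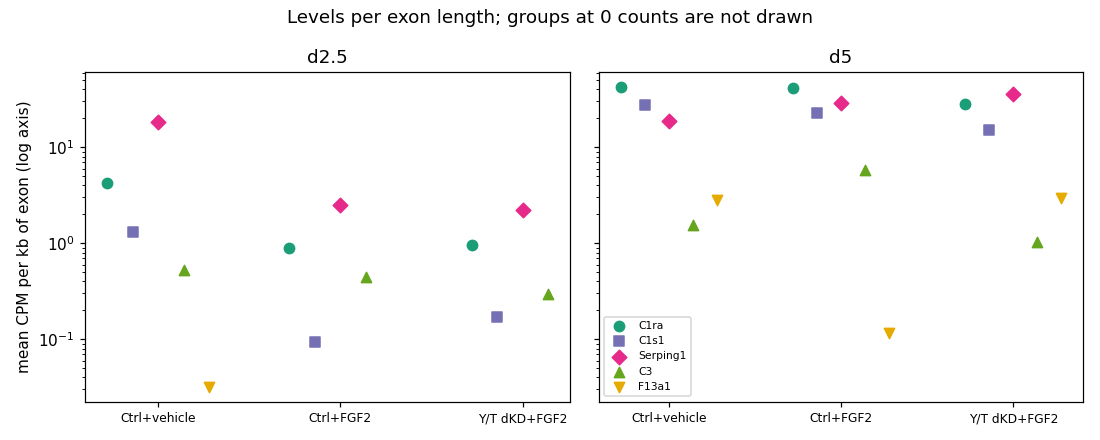
Mean CPM per kilobase of exon (y axis, log scale) of 5 genes in the 3 groups (x axis) at d2.5 (left) and d5 (right), with a marker per gene; groups at 0 counts are not drawn. Serping1 is uppermost in all groups at d2.5, C1ra is uppermost in the vehicle libraries and Ctrl+FGF2 at d5, and C3 and F13a1 change places in the FGF2 libraries at d5.

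Other genes of the same steps show how much of each pathway the cells expressed. C1qa, Cfd (factor D, which cleaves factor B) and Cfi (factor I, which degrades C3b) had 0 counts in all 18 libraries. C2 had at most 10 counts in a library, C4a at most 17, C1rb at most 2, C1s2 at most 27, the C3a receptor gene C3ar1 at most 4 and Hc, which encodes C5, at most 4. RNA for C1r, C1s, C1 inhibitor and C3 was thus present where RNA for C1q, factor B, factor D and factor I was not detected.

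Of 50 further complement genes listed, 48 had an identifier, and 9 were tested at d2.5. With FGF2 at d2.5, 2 of the 9 were higher (Clu and C1qbp) and 6 were lower, beside 33.5% and 34.1% of all genes tested. Their median log2 fold change was -0.57, beside 0.0022 over all genes tested. Masp1, a protease of the lectin pathway, fell from 236 ± 21.2 to 81.7 ± 2.60 CPM (log2 -1.54 ± 0.05 SE, adjusted p = 1.12e-22). Colec12, a collectin-type scavenger receptor, fell by 1.22 on the log2 scale and C1rl, a C1r-like protease, by 1.10.

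None of the 7 genes of the terminal pathway passed the filter on either day. With the knockdown against FGF2 alone at d2.5, 0 of the 9 were higher and 1 was lower by edgeR and by DESeq2. In edgeR 10.8% of all genes were called higher and 13.6% lower. At an unadjusted p under 0.05 in edgeR 1 was higher (Cd46, which encodes a membrane regulator of C3b) and 2 were lower (C1rl and Masp1). C1rl fell by 0.78 on the log2 scale (adjusted p = 0.0130), a call that was lost without Ctrl+FGF2 replicate 1 (adjusted p = 0.104), Y/T dKD+FGF2 replicate 1 (0.0796) or Y/T dKD+FGF2 replicate 3 (0.0570).

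At d5, 14 of these genes were tested. With FGF2, 3 were higher and 4 lower, where 23.5% of all 13304 genes tested were called higher and 23.7% lower. Clu, encoding clusterin, which restrains the terminal complex, rose from 62.6 ± 1.33 to 134 ± 30.5 CPM (log2 1.11 ± 0.11 SE, adjusted p = 2.82e-07), and Csmd1, a membrane regulator gene, rose from 0.633 ± 0.229 to 2.33 ± 0.752 CPM (log2 1.86 ± 0.34 SE, adjusted p = 2.07e-04).

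The knockdown against FGF2 alone at d5 had 1 of the 14 higher and 6 lower, beside 15.6% and 16.1% of all genes. The higher gene was Colec12 (log2 0.22 ± 0.05 SE, adjusted p = 9.68e-04). C1s2, the close copy of C1s1, fell by 1.37 on the log2 scale (adjusted p = 0.00417), and Colec10, a soluble collectin, by 1.23 (adjusted p = 0.00411). Susd4, a membrane regulator of complement, fell by 0.92 (adjusted p = 9.29e-05). Csmd1 fell by 1.11 (adjusted p = 0.00851), a call lost without Ctrl+FGF2 replicate 1 (adjusted p = 0.0549) and with DESeq2 (0.0605). Cd59a, which blocks the terminal complex, fell by 1.07 (adjusted p = 0.0286), and that call was lost without Ctrl+FGF2 replicate 1 (adjusted p = 0.114), Y/T dKD+FGF2 replicate 2 (0.0798) or Y/T dKD+FGF2 replicate 3 (0.121), and with DESeq2 (0.145).

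**Figure D5:**
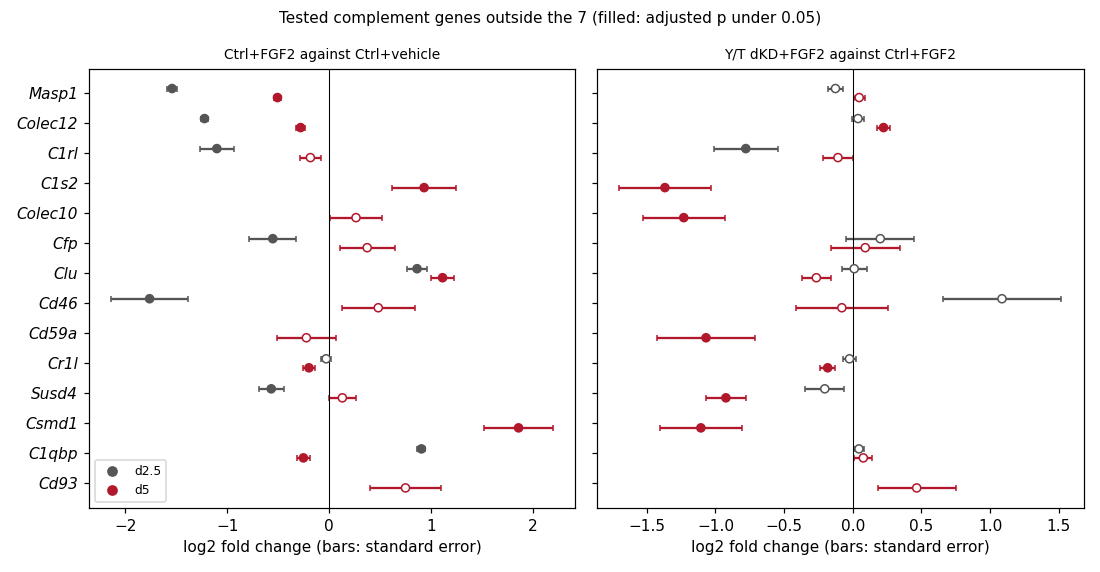
log2 fold change (x axis) of the complement genes outside the 7 that were tested on either day (y axis), for FGF2 against vehicle (left) and the knockdown against FGF2 alone (right), with d2.5 in grey, d5 in red, standard errors as bars and filled points for adjusted p under 0.05. On the left, 6 of the 9 d2.5 points are filled and below 0, and on the right the 6 filled d5 points below 0 are those of C1s2, Colec10, Cd59a, Cr1l, Susd4 and Csmd1.

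Genes around factor XIII were mostly silent. Of 28 other coagulation genes, 8 were tested at d2.5 and 9 at d5, and F13b, which encodes the carrier subunit of plasma factor XIII, and the fibrinogen genes Fgb and Fgg had 0 counts in all libraries. At d2.5, 2 of the 8 were higher and 5 lower with FGF2, beside 33.5% and 34.1% of all genes, and 1 was higher and 2 lower with the knockdown than with FGF2 alone, beside 10.8% and 13.6%. At d5 with FGF2, 4 of the 9 were higher and 4 lower, beside 23.5% and 23.7% of all genes. F3, encoding tissue factor, which starts coagulation, was at 123 ± 9.55 CPM in the vehicle libraries, 87.6 ± 8.22 CPM in the FGF2 libraries and 167 ± 5.44 CPM in the knockdown libraries at d5. It fell with FGF2 (log2 -0.48 ± 0.06 SE, adjusted p = 6.55e-06) and was higher with the knockdown than with FGF2 alone (log2 0.92 ± 0.06 SE, adjusted p = 3.44e-09), where 2 of the 9 were higher and 4 lower, beside 15.6% and 16.1% of all genes. Thbd, encoding the anticoagulant thrombomodulin, fell from 32.8 ± 0.914 to 16.1 ± 2.44 CPM with FGF2 at d5 (log2 -1.01 ± 0.09 SE, adjusted p = 6.08e-08). Procr, encoding the protein C receptor, fell by 1.12 on the log2 scale with the knockdown (adjusted p = 1.24e-04).

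Tgm2, the other transglutaminase that passed the filter, was at 36.2 ± 3.80, 25.5 ± 4.41 and 20.5 ± 0.490 CPM in the vehicle, FGF2 and knockdown libraries at d5. It fell with FGF2 (log2 -0.49 ± 0.10 SE, adjusted p = 5.50e-04). The knockdown difference of log2 -0.33 ± 0.11 SE (adjusted p = 0.0284) was lost on leaving out any of 5 libraries, without which adjusted p was between 0.0609 (Y/T dKD+FGF2 replicate 2) and 0.195 (Ctrl+FGF2 replicate 2), with Ctrl+FGF2 replicate 3 and Y/T dKD+FGF2 replicates 1 and 3 between them. Unlike F13a1, Tgm2 was not higher in the knockdown group than in the FGF2 libraries.

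Among acute phase and inflammatory genes, 9 passed the filter at d2.5, of which 2 were higher and 7 lower with FGF2 (33.5% and 34.1% of all genes). The 7 include Cxcl5 and Hp, at 2.69% and 6.19% of the vehicle level with FGF2. These passed through their vehicle libraries alone, so their lower level was built into their selection, as for C1s1. With the knockdown, 2 of the 9 were higher than with FGF2 alone (10.8% of all genes). At d5, 7 were tested, with 2 higher and 1 lower in either comparison, beside 23.5% and 23.7% of all genes with FGF2 and 15.6% and 16.1% with the knockdown. Ptx3, a pattern recognition protein that binds C1q, fell from 48.1 ± 1.77 to 2.44 ± 0.937 CPM at d2.5 (log2 -4.32 ± 0.12 SE, adjusted p = 2.42e-24). At d5 it was at 109 ± 8.50 CPM in the vehicle libraries, 49.0 ± 1.56 CPM in the FGF2 libraries and 80.9 ± 5.53 CPM in the knockdown libraries, lower with FGF2 (log2 -1.14 ± 0.06 SE, adjusted p = 2.24e-10) and higher with the knockdown than with FGF2 alone (log2 0.72 ± 0.07 SE, adjusted p = 1.74e-07). Cp, encoding ceruloplasmin, fell from 71.6 ± 11.6 to 16.7 ± 1.75 CPM with FGF2 at d2.5 and rose from 355 ± 7.82 to 552 ± 26.6 CPM at d5 (adjusted p = 3.74e-19 and 9.85e-10).

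Of 16 transcription factors known for complement genes that were tested at d5, 9 were higher and 1 lower with FGF2 (23.5% and 23.7% of all genes), and 4 were higher and 5 lower with the knockdown than with FGF2 alone (15.6% and 16.1%). The lower one was Cebpa, which encodes C/EBP alpha, with 16, 21 and 19 counts in the vehicle libraries and 12, 6 and 4 in the FGF2 libraries (log2 -1.37 ± 0.39 SE, adjusted p = 0.00706). Cebpd, which encodes C/EBP delta, was at 28.6 ± 2.52 CPM in the vehicle libraries, 54.0 ± 7.65 CPM in the FGF2 libraries and 45.2 ± 4.73 CPM in the knockdown libraries at d5. It rose with FGF2 (log2 0.92 ± 0.10 SE, adjusted p = 5.48e-07). The knockdown difference at d5 (log2 -0.26 ± 0.09 SE, adjusted p = 0.0395) was lost without Ctrl+FGF2 replicate 1 (adjusted p = 0.210), Ctrl+FGF2 replicate 3 (0.0892), Y/T dKD+FGF2 replicate 1 (0.171) or Y/T dKD+FGF2 replicate 3 (0.140), and with DESeq2 (0.0654). At d2.5 Cebpd fell from 39.0 ± 1.27 to 21.6 ± 1.43 CPM with the knockdown (log2 -0.87 ± 0.06 SE, adjusted p = 2.41e-11). Stat3 fell from 197 ± 3.002 to 93.5 ± 0.453 CPM with FGF2 at d2.5 (log2 -1.09 ± 0.04 SE, adjusted p = 3.33e-21). Of the 15 such factors tested at d2.5, 5 were higher and 6 lower with FGF2 (33.5% and 34.1% of all genes). With the knockdown against FGF2 alone, 3 were higher and 5 lower (10.8% and 13.6%).

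The genes whose pattern over the 18 libraries was most like that of C3 were Sorl1, Serpinb9 and Sema3f, with Pearson r of log2(CPM + 1) between 0.974 and 0.991 among 10287 genes ranked. Sorl1 was at 11.3, 25.2 and 9.72 CPM in the vehicle, FGF2 and knockdown libraries at d5, the same order of groups as C3 and a smaller range. For F13a1 they were Actr3, Gpat4 and Rerg (r between 0.963 and 0.967), and Rerg was at 15.9, 6.86 and 16.8 CPM in that order. Actr3 was at 649, 558 and 645 CPM and Gpat4 at 193, 137 and 179 CPM. Their fold differences between groups at d5 were far smaller than those of F13a1. Libraries of one group and day share their treatment and batch, so r is a description of likeness and carries no test.

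Markers of blood, liver and endothelial cells were low, and those of adipocytes were split. Of 16 macrophage and monocyte markers, 6 had 0 counts in all 18 libraries (Tyrobp, Lyz2, C1qa, C1qb, C1qc and Itgam), and at d5 the summed list was between 5.03 and 6.64 CPM in the vehicle libraries, 5.05 and 6.92 CPM in the FGF2 libraries, and 8.89 and 9.10 CPM in the knockdown libraries. Of the 3 macrophage markers tested at d5, Cd68 was 2.10-fold higher (adjusted p = 0.00197) and Cd14 1.64-fold higher (adjusted p = 0.00770) with the knockdown than with FGF2 alone, and their log2 differences with FGF2 against vehicle were 0.16 ± 0.28 and -0.11 ± 0.21 SE. Csf1r, also tested, was not called in either comparison and had its lowest mean with the knockdown. It was at 1.20 ± 0.315, 1.17 ± 0.197 and 0.789 ± 0.265 CPM in the vehicle, FGF2 and knockdown libraries. Of 5 megakaryocyte and platelet markers, Gp1bb and Gp9 were at 0 throughout, and the list summed to between 2.87 and 3.92, 4.72 and 5.21, and 4.08 and 5.50 CPM in that order. Of 6 hepatocyte markers, 5 were at 0 and the sum reached at most 0.0831 CPM. The 5 endothelial markers summed to at most 1.93 CPM at d5, with Cdh5 at 0. Of the 6 adipocyte markers, 3 were under 1 CPM in every group at d5. These were Adipoq, Plin1 and Lep, each with at most 2 counts over the libraries of a group. The list summed at d5 to between 60.5 and 74.4 CPM in the vehicle libraries and 61.3 and 73.5 CPM in the FGF2 libraries. In the knockdown libraries it summed to between 48.1 and 54.2 CPM. Nearly all of the sum came from Lpl, Pparg and Fabp4. Lpl (lipoprotein lipase) led them at d5, with 45.7 ± 5.69, 43.7 ± 6.21 and 33.5 ± 3.61 CPM in that order. The part of these markers in the C3 and F13a1 values was not tested.

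The labelled NC origin was also checked. Sox10 and Foxd3 had 0 counts in all 18 libraries, and the 11 NC markers with an identifier summed to between 208 and 353 CPM. The 7 mesenchymal markers summed to between 7686 and 23550 CPM. The 8 osteoblast markers with an identifier moved with the groups at d5, summing to between 70205 and 73040 CPM in the vehicle libraries, 38742 and 42799 CPM in the FGF2 libraries, and 51447 and 54138 CPM in the knockdown libraries. Most of that sum is Col1a1 and Col1a2, at 31912 and 38347 CPM in the vehicle libraries. Gene by gene, 5 of the 8 were lower and 3 higher with FGF2 at d5 (Sp7 1.25-fold, Spp1 1.38-fold and Dmp1 3.62-fold), beside 23.7% and 23.5% of all genes. All 8 were higher with the knockdown than with FGF2 alone, beside 15.6% of all genes. Their part in the F13a1 and C3 values was not tested.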

How the data were processed

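Poly(A) RNA was sequenced from 18 O9-1 libraries. The authors deposited raw gene counts per library, unnormalized, laid out as STAR writes gene counts. The submitters' processing notes name FastQC, STAR, Picard, featureCounts and mm10, without versions. The study's methods do not state a test for the RNA-seq. The reverse-strand column, with 96.0% to 96.6% of stranded counts, was used, and entries naming no gene (27.0% to 34.4%) were left out. Identifiers were matched to GENCODE M21 (54587 of 55335). Each day's 9 libraries were fitted together in R 4.3.3 by the quasi-likelihood method of edgeR 4.0.16, after filterByExpr and TMM scaling. P-values were adjusted over all genes tested (Benjamini-Hochberg), a gene is called at an adjusted value under 0.05, and this fit gave every adjusted p unless another is named. A standard error is the size of the log2 fold change over the root of its F statistic. CPM use TMM factors over all 18 libraries. The fits were tested on simulated data. Every pair of replicates differed beyond sampling noise, with a mean chi-square per gene of 1.25 to 6.41. Intervals and floors cover counting error only.

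The genes, lists and rules were chosen with earlier results of these data known. Named are the 7 genes, Yap1 and Wwtr1, same-step genes, and called listed genes of at least 1 CPM with an absolute log2 fold change of at least 1 (FGF2) or 0.5 (knockdown), from which examples are given, and the 3 genes most like C3 and F13a1 at a mean of at least 5 CPM. Alternatives were DESeq2 1.42.0, scaling by RLE or the upper quartile, an open filter or a minimum of 10 counts in every library, only the 2 groups compared, 1 fit of all 18 libraries, a replicate block, unstranded counts, adjusted p under 0.01 at d2.5, and leaving out each library. Promoter windows are from RefSeq (GRCm38.p6). C5ar2, Cr2, Ets1, Runx2, Serpina3g and Tgm7 were listed and not analysed here, and 1 further listed complement gene is not reported here.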

Additional observations from a re-analysis of the deposited data

Results flagged for a closer look

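The effect of FGF2 against vehicle had opposite signs on the 2 days, with no overlap of libraries on either, for several listed genes and the knockdown target Wwtr1. How many of all genes did the same was not counted. With FGF2, 67.6% of all genes tested were called at d2.5 and 47.2% at d5, so these reversals are not read as particular to these genes. The difference between days was not tested, since each day is its own batch. Serping1 had a log2 fold change of -2.87 at d2.5 and 0.61 at d5. Cp went from -2.10 to 0.65, F8 (coagulation factor VIII) from -1.75 to 0.57, Pros1 (protein S) from -1.37 to 0.28, Procr from -0.37 to 0.87, Cebpd from -0.19 to 0.92 and Susd4 from -0.57 to 0.13, where the d5 value of Susd4 was not called. The reverse order was seen for F3, from 0.28 to -0.48, and for Wwtr1, from 0.65 to -0.0925. With the knockdown against FGF2 alone, Cp went from 0.41 to -0.22, and its d2.5 call was lost without Ctrl+FGF2 replicate 2 (adjusted p = 0.0560) or Y/T dKD+FGF2 replicate 3 (0.0695). The d2.5 call of Procr was lost without Ctrl+vehicle replicate 1 (adjusted p = 0.0953), Ctrl+FGF2 replicate 1 (0.0959) or Ctrl+FGF2 replicate 3 (0.0572) and with DESeq2 (0.122). The d5 call of Wwtr1 (adjusted p = 0.0449) was lost in 12 of its alternatives.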

How the results depend on the processing

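At d2.5 the calls of C1ra and Serping1 with FGF2 held in every alternative. So did those of C3, C1ra and Serping1 in Y/T dKD+FGF2 against Ctrl+vehicle. None of the tested genes among the 7 was called with the knockdown against FGF2 alone in any of them. F13a1 was not tested at d2.5 as reported. On 0 counts with FGF2 against 9 with vehicle, it was called lower with no filter (adjusted p = 0.01075) and not with DESeq2 (0.0669). It entered the 1 fit of all 18 libraries only through its d5 counts, which the choice had used, so no d2.5 call is taken from that fit. With at least 10 counts in every library C1s1 was not tested. The log2 fold changes of C3 and F13a1 at d5 moved by less than 1 SD in every alternative: C3 with FGF2 between 1.79 and 1.99, F13a1 with FGF2 between -4.67 and -4.43. Among the other complement genes, the count lower with the knockdown than with FGF2 alone at d2.5 was 2 in a fit of only the 2 groups, 0 at adjusted p under 0.01, and 0 to 2 on leaving out a library, and the count higher was 0 to 1 (1 without Ctrl+vehicle replicate 1 or Y/T dKD+FGF2 replicate 1). The count higher with the knockdown than with vehicle at d2.5 was 4 with no filter. With at least 10 counts in every library, fewer genes were tested at d5, and 1 was higher with FGF2, 2 lower with the knockdown than with FGF2 alone and 1 higher with the knockdown than with vehicle. Differences near zero changed sign. C1ra with FGF2 at d5 was 0.0172 with upper-quartile factors and between -0.0339 and 0.0199 on leaving out a library. For the knockdown against FGF2 alone at d2.5, leaving out a library gave C1ra between -0.0658 and 0.271, Clu between -0.0162 and 0.0417 and F3 between -0.0236 and 0.0194. The cause was not tested where none is named. Genes under about 10 counts in a library, such as F13a1 and C1s1 with FGF2 at d2.5, are limited by depth.

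Replicate numbers showed no pairing of the libraries at d2.5 and at most a partial one at d5. Deviations of same-numbered libraries correlated between -0.0916 and 0.0515 at d2.5 and between -0.0791 and 0.192 at d5. The highest values at d5 were between Ctrl+vehicle and Ctrl+FGF2, 0.168 for replicate 1 and 0.192 for replicate 2. On the 2 days, 3 of 9 and 5 of 9 libraries correlated best with their own number. With a replicate block at d2.5, C1ra and Serping1 were lower with FGF2, as without it. C3, C1ra and Serping1 were again lower in Y/T dKD+FGF2 than in Ctrl+vehicle, and none of the tested genes was called against FGF2 alone. C1s1 against vehicle is left out, since it was not tested. Over all genes at d2.5, the block gave 9180 calls with FGF2 beside 9243 without it, and 9518 beside 9551 for the knockdown against vehicle. The knockdown against FGF2 alone had 3226 calls at d2.5 beside 3345 and 4354 at d5 beside 4220.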
